A study of Homo sapiens with 13 samples.

Results

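The metallothionein genes were followed through 3 treatments of HEK293T, an established human cell line of embryonic kidney origin with the SV40 large T antigen. They were chosen as every probe that the array files name with 1 of 10 symbols: MT1A, MT1B, MT1E, MT1F, MT1G, MT1H, MT1L, MT1M, MT1X and MT2A. These symbols have 12 of the 42405 probes on the array, since MT1H and MT1X have a pair of probes each, and 11 of the 12 were among the 34619 probes kept for testing. Total RNA was hybridised to 13 Agilent Human 8x60K arrays, each with a treated RNA in 1 dye and its control RNA in the other. In the first treatment the cells received 1 µM UNC0638, which blocks the enzymes G9a (encoded by EHMT2) and GLP that methylate histone H3 on lysine 9, or an equal volume of the solvent DMSO, for 48 h. It has 5 biological replicates on 7 arrays: both dye orientations for replicates 1 and 2, and only the orientation that puts treated RNA in Cy5 for replicates 3 to 5. The second is siRNA against WIZ, a zinc finger partner of G9a and GLP, beside control siRNA at 72 h, with 2 biological replicates on 4 arrays, dye-swapped throughout. The third is siRNA against G9a beside control siRNA at 72 h, with 2 biological replicates on 2 arrays and no dye swap (treated RNA in Cy5). All groups are of 1 cell line grown in medium with 10% fetal bovine serum. Whether both knockdowns used the same control RNA is not stated in the labels.

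Metallothioneins are small proteins rich in cysteine that bind zinc and copper and buffer cadmium. Their genes lie in a cluster on chromosome 16 and are switched on by the zinc-sensing transcription factor MTF1, which binds metal response elements in their promoters. Glucocorticoids and oxidative stress also induce several of them. MT2A is usually the most abundant isoform in human cells, the MT1 genes are close copies of one another, and MT1L is annotated as a transcribed pseudogene.

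The likeness of the MT1 copies limits what a probe can tell apart, and the probe sequences show it. The files give a sequence for 7 of the 12 probes. The first 30 bases of the MT1B, MT1E and MT1L probes are shown here because these 3 probes share the run of 12 bases set in capitals.
MT1B: tcatcagagaagtgccgCTGCTGTGCCTGa
MT1E: ggcatcggagaagtgcagCTGCTGTGCCTG
MT1L: CTGCTGTGCCTGatgtggggacagacctgc
The longest run shared by any pair was 19 bases, between MT1E and MT1L and between MT1F and MT1L. The MT1B probe shared 17 bases with MT1E and 16 with MT1L. The starts of the MT1F and MT2A probes are shown because these were the members of lowest GC content among the 6 kept probes with a sequence.
MT1F: tgccaggacaacctttctcccagatgtaaa
MT2A: caaccctgaccgtgaccgtttgctatattc
The MT2A probe shared no run above 6 bases with any of the others. The MT1A probe shows the protein's composition: read in frame from its first base, 8 of its 20 codons are cysteine codons, in capitals.
MT1A: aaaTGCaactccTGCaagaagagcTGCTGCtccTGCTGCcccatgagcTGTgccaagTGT
Cross-hybridisation was not measured here. By the transcripts the files list for each probe, 2 of the 12 match several metallothioneins: the MT1A probe also lists MT1M, and MT1X probe A_33_P3350056 also lists MT1B. Those values are therefore not specific to the gene named.

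The probes that the files place lie on the plus strand of the same stretch of chromosome 16. On build 37.1, the build of the files, they were at chr16:56643332-56643391 for MT2A, chr16:56652580-56652639 for MT1L, chr16:56660853-56660912 for MT1E, chr16:56667810-56667869 for MT1M, chr16:56686948-56687007 for MT1B and chr16:56693077-56693136 for MT1F. The MT1A probe spanned chr16:56673220-56673808, which is wider than the probe. The remaining 5 probes carry no coordinates in the files. In the RefSeq annotation of GRCh38.p14 the order along the chromosome is MT2A, MT1L, MT1E, MT1M, MT1A, MT1B, MT1F, MT1G, MT1H and MT1X, with gene spans from 914 bases for MT2A to 1727 for MT1X.

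Promoter sequences were available for MT2A, MT1B, MT1H and MT1X, and each held letters that match the core of the element that MTF1 reads. The core of the metal response element was searched as TGCACNC or TGCGCNC on both strands over the 250 bases before each start. The promoters of MT2A and MT1X are printed because MT2A had the largest mean difference among the members and MT1X has a pair of probes that disagreed. Matches are in capitals.
MT2A, chr16:56608334-56608583 of GRCh38.p14, plus strand: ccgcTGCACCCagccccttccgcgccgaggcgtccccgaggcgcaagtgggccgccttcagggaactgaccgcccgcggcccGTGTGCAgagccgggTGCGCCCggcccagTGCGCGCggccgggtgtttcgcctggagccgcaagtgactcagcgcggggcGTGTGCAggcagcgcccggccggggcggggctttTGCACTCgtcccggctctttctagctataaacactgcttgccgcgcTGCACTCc
MT1X, chr16:56682220-56682469 of GRCh38.p14, plus strand: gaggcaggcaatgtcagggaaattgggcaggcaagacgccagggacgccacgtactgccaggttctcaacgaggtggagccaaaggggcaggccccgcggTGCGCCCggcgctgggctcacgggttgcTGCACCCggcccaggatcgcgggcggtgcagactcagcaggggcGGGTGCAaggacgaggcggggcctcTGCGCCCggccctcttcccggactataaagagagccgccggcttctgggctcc
The MT2A promoter held 7 matches, 5 on the strand shown and 2 on the other, and the MT1X promoter held 4, of which 1 was on the other strand. MT1H had 8 matches and MT1B had 3. Of 35116 promoter windows of this length, 24.8% held at least 1 match, 1.58% at least 3, 0.37% at least 4, 0.0313% at least 7 and 0.0171% at least 8. A match is a description of the letters and not a measured binding site.

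Values below are on the log2 scale, treated over control, corrected for background and dye within each array, with the 2 arrays of a dye-swapped pair averaged to 1 replicate. A probe is called where the adjusted p of limma's moderated test (Benjamini-Hochberg over 34619 probes) is below 0.05. EHMT2 read -1.67 and -1.65 in the G9a siRNA replicates, and WIZ read -2.26 and -1.97 in the WIZ siRNA replicates. The EHMT2 probe depended on the dye on the WIZ siRNA arrays. There it read 1.23 and 0.73 with treated RNA in Cy3, and -0.56 and -0.17 with treated RNA in Cy5. The part of dye in its G9a siRNA values, all with treated RNA in Cy5, was not tested. The 7 HEK293T markers examined, among them VIM, KRT18, NEFM and PAX2, were above background in the control RNA of all 13 arrays, while the liver markers ALB, TTR and APOB were so on 4, 3 and 3. Of the other markers described, LRP2 and COL1A1 were above background on 13 of 13 arrays, SLC34A1 on 12, CD3E on 11, UMOD on 10, PTPRC on 8 and COL3A1 on 5. The arrays also fall into 2 sets by the pixel noise of their background, which no label or header names as a batch. In Cy3, the background's pixel SD had a lowest value of 4 or 5 on the arrays of UNC0638 replicates 1 and 2 and of WIZ siRNA, and 11 on those of UNC0638 replicates 3 to 5 and of G9a siRNA. UNC0638 replicate 3 also stood apart from its group. Over all kept probes its ratios correlated with those of the 2 G9a siRNA replicates at r = 0.867 and 0.829, against 0.468 and 0.468 for replicate 4 and 0.176 and 0.196 for replicate 5. Results that rest on replicate 3 or on the set are given with and without them.

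Most of the family was measurable in these cells. For 9 of the 12 probes both RNAs were above background on all 13 arrays: MT2A, MT1A, MT1B, MT1E, MT1F, MT1L, both MT1X probes and MT1H probe A_33_P3315314. MT2A was far above it, with control spots of 35009 to 148310 in raw pixel brightness over the 13 arrays. The same quantity spanned 3434 to 47570 for MT1A, 946 to 5909 for MT1F and 556 to 5648 for MT1E. The other 3 probes were dim. MT1G was above background on 2 arrays in the treated and 4 in the control RNA, MT1H probe A_33_P3368313 on 5 and 5, and MT1M on 1 and 2. MT1M was not kept for testing, and neither MT1G nor MT1H probe A_33_P3368313 was above background on any G9a siRNA array, so their ratios there carry no measured change. The array reads total RNA, in which fewer cells of a kind and less RNA per cell cannot be told apart.

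After G9a siRNA, 7 of the 11 tested metallothionein probes fell and none rose: MT2A, MT1B, MT1E, MT1F, MT1L, MT1H probe A_33_P3315314 and MT1X probe A_33_P3350056. Each was left at 48% to 58.1% of its control level. In that comparison 33.8% of all tested probes were called and 18.8% were called lower, so a fall was common on these arrays. It was more common among bright probes. In 10 classes of all tested probes by brightness, 0.549% were called lower in class 1, the dimmest, which held 2 members. In classes 7, 8, 9 and 10 the share was 29.9%, 31.2%, 32.6% and 32.1%, and they held 3, 4, 1 and 1 members. The part of brightness in the members' calls was not tested. The median of the 11 probes was -0.88, beside -0.01 for all tested probes, of which 5% lay below -0.86.

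**Figure D1:**
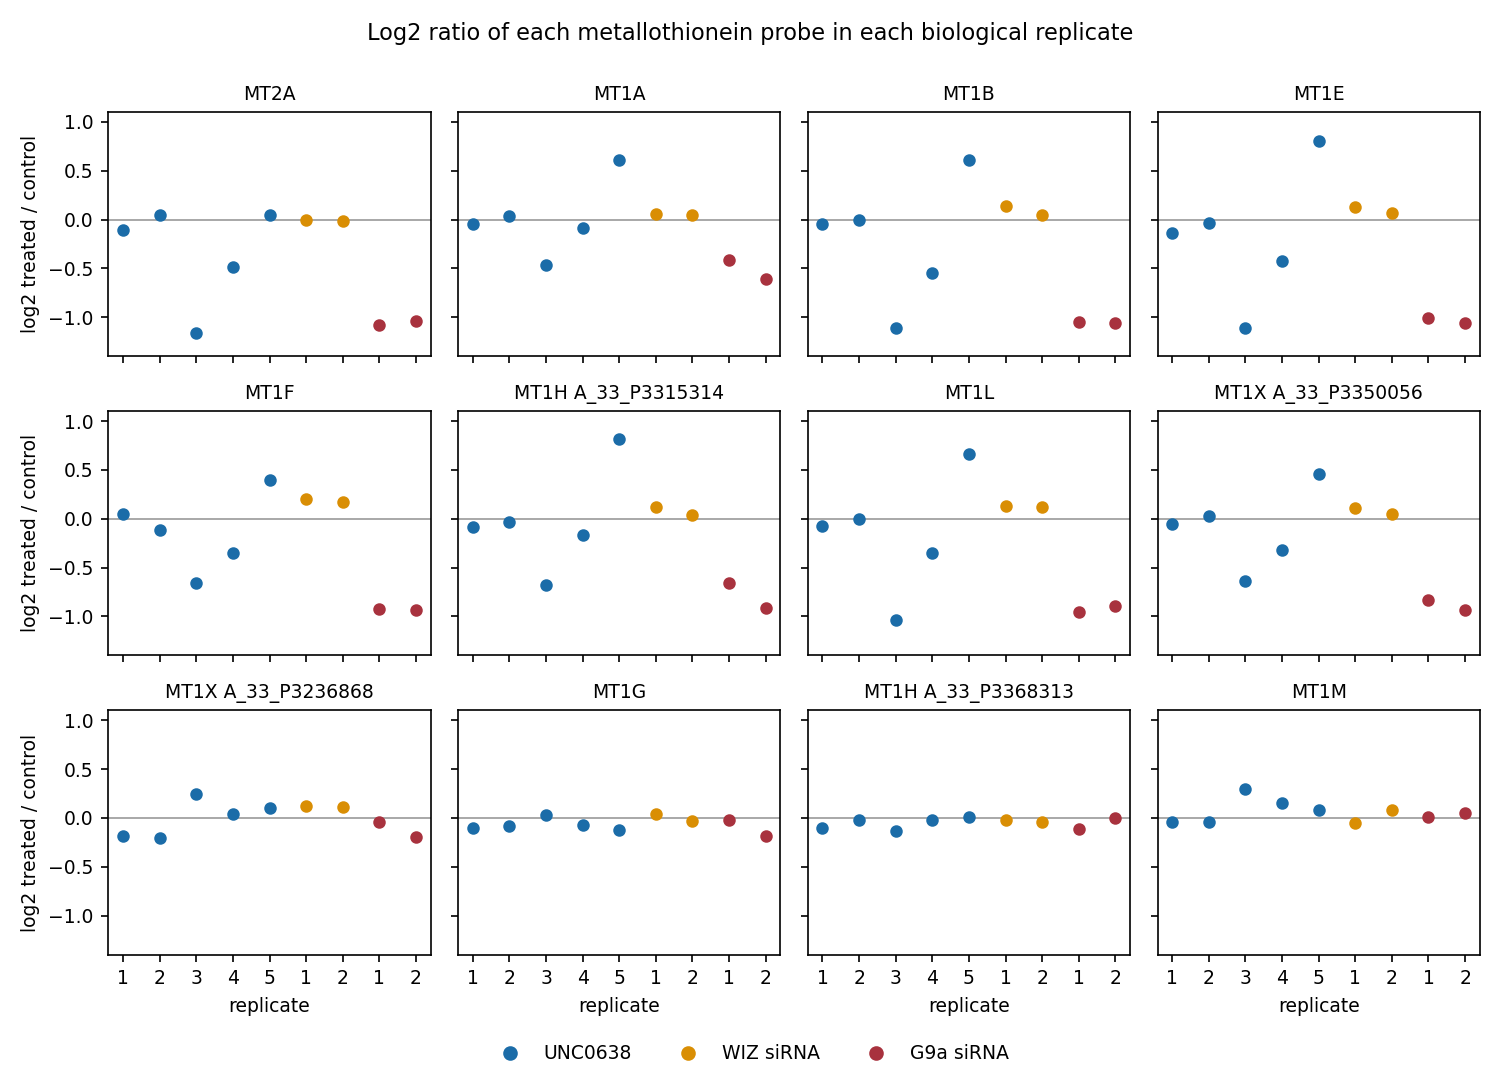
Log2 ratio of treated over control (vertical axis) for each of the 12 metallothionein probes in each biological replicate (horizontal axis), coloured by treatment. In the 8 panels of the upper 2 rows both G9a siRNA points lie at -0.41 or below, UNC0638 replicate 3 lies near them and the WIZ siRNA points lie close to 0, while the 4 panels of the bottom row stay between -0.20 and 0.29.

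MT2A, the main inducible isoform, read -1.08 and -1.04 in the 2 G9a siRNA replicates. Its mean of -1.06 (SE 0.245, n = 2) had an adjusted p of 0.0104 in limma's test, and 48% of the control level remained. In raw brightness the treated and control spots were 20013 and 37070 on the first array and 21503 and 51002 on the second. Both WIZ siRNA replicates and 4 of the 5 UNC0638 replicates lay above both of these ratios, and UNC0638 replicate 3 lay below them.

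MT1F and MT1X probe A_33_P3350056 had the smallest adjusted p-values of the family. MT1F read -0.92 and -0.93 (mean -0.93, SE 0.194, limma adjusted p = 0.00693, n = 2). MT1X probe A_33_P3350056 read -0.83 and -0.94 (mean -0.88, SE 0.2, limma adjusted p = 0.00953, n = 2). For both probes the G9a siRNA values lay below all 5 UNC0638 and both WIZ siRNA values. MT1F was the only called member whose probe is specific by its listed transcripts, has a known sequence and showed no overlap between G9a siRNA and the other treatments. Its probe still shares a run of 19 bases with that of MT1L and 15 with that of MT1E. The share of all tested probes without such overlap was not counted, so the lack of overlap is a description.

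The 3 probes with the shared run of bases gave close values. MT1B read -1.05 and -1.06 (mean -1.05, SE 0.306, limma adjusted p = 0.0264, n = 2). MT1E read -1.01 and -1.06, and MT1L read -0.95 and -0.90, with limma adjusted p-values of 0.0369 and 0.0368. In each of the 3, UNC0638 replicate 3 lay below both G9a siRNA values. The treatments thus overlapped by 1 replicate. Whether the 3 probes read partly the same RNA was not tested.

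MT1H probe A_33_P3315314 read -0.66 and -0.91 (mean -0.78, SE 0.261, limma adjusted p = 0.0444, n = 2), and UNC0638 replicate 3 at -0.68 fell between them. MT1A read -0.41 and -0.61, a mean of -0.51 that was not called (SE 0.193, limma adjusted p = 0.0691, n = 2). The 3 remaining tested probes had means of -0.12 (MT1X probe A_33_P3236868), -0.11 (MT1G) and -0.06 (MT1H probe A_33_P3368313). The call count rests on few replicates. Without UNC0638 replicate 1, 2 or 4 it was 4, where 10957, 10833 and 11150 of all tested probes were called. Without UNC0638 replicate 3 or 5 it was 8, where 13522 and 13146 were. With only G9a siRNA replicate 2 or only replicate 1 the family's median was -0.91 or -0.83. A single replicate has no spread of its own, so no count is given for fits with 1 replicate in a group. With a term for dye 3 were called, MT1F, MT1X probe A_33_P3350056 and MT2A, where 5283 of all tested probes were called.

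**Figure D2:**
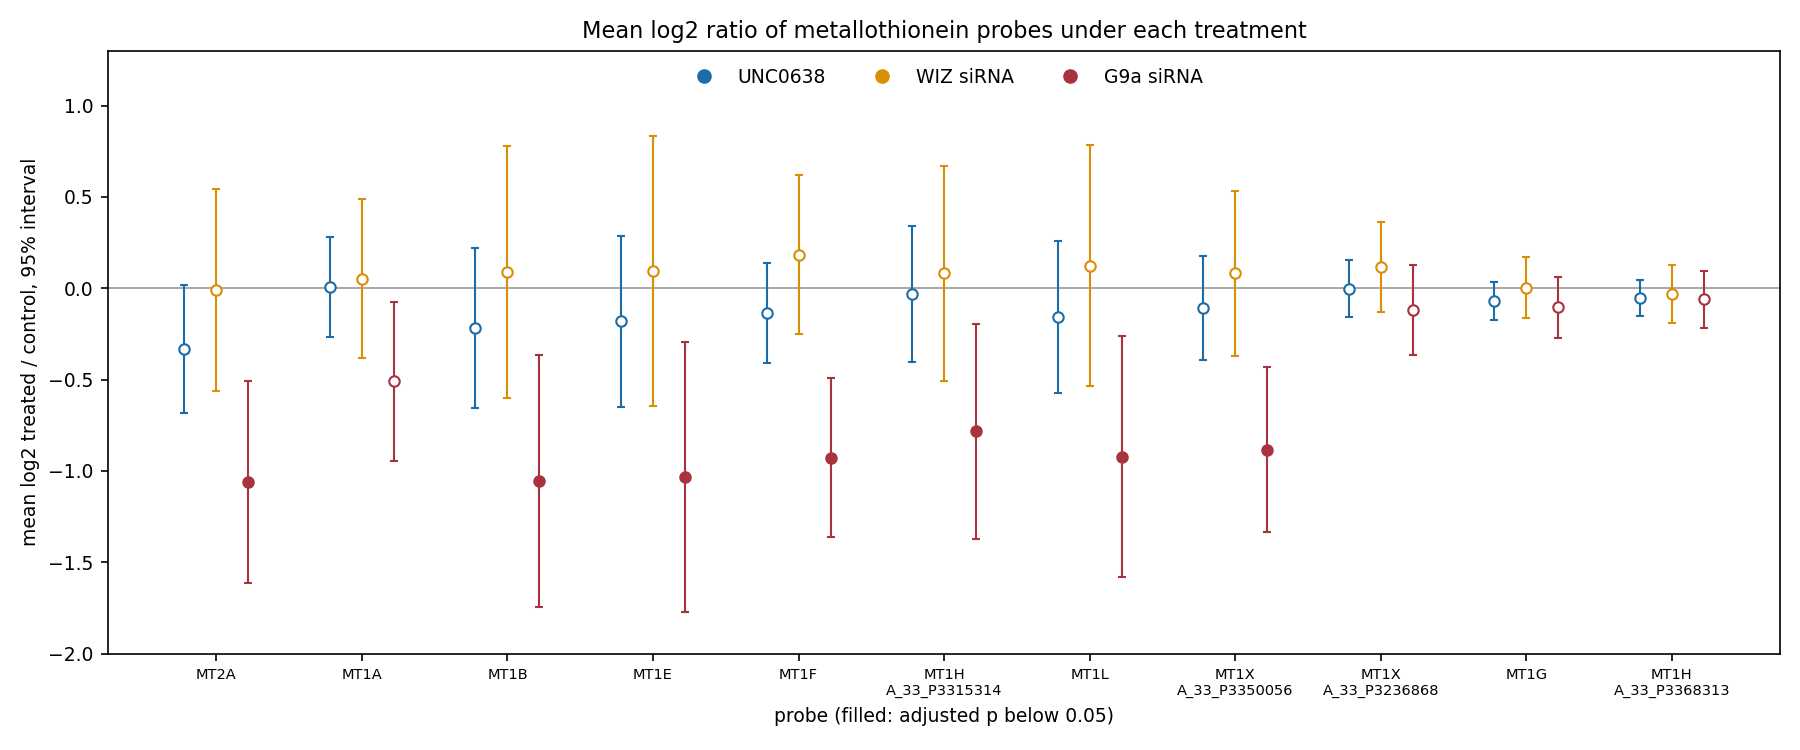
Mean log2 ratio of treated over control with the 95% interval of the fit (vertical axis) for the 11 tested metallothionein probes (horizontal axis) under UNC0638 (n = 5), WIZ siRNA (n = 2) and G9a siRNA (n = 2), with filled points for adjusted p below 0.05. The 7 filled points are all G9a siRNA, between -0.78 and -1.06, and every UNC0638 and WIZ siRNA interval spans 0.

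Base composition of the probes moved with the ratios on the same arrays. Among probes of 55% to 60% GC the medians of the G9a siRNA replicates were -0.33 and -0.44 and 52.6% of probes were called lower. Among probes of 35% to 40% GC the medians were 0.17 and 0.24, and 7.76% were called lower. UNC0638 replicate 3 had medians of -0.22 and 0.18 in the same classes. The probes of MT1A, MT1B, MT1E and MT1L are 55% GC, that of MT1F is 41.7% and that of MT2A is 35%. Since 7 of the 12 member probes have a sequence, a correction of the family as a whole is void, and the values below are for single probes.

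Set beside probes of their own GC class, MT2A and MT1F were low after G9a siRNA and MT1A was not. Of the 4962 other probes in its class, 0.544% had a lower G9a siRNA mean than MT2A. The same share was 1.88% for MT1F, 8.81% for MT1B, 9.41% for MT1E, 14.6% for MT1L and 40.6% for MT1A. This was not particular to G9a siRNA. In UNC0638 replicate 3 the shares were 0.443% for MT2A, 3.74% for MT1F, 1.71% for MT1B, 1.71% for MT1E, 2.31% for MT1L and 26.5% for MT1A. With the trend of the ratio on GC removed from each array, MT2A read -1.34 (limma adjusted p = 0.0047) and MT1F -0.99 (0.00423), both still called. MT1B at -0.60 (0.0914), MT1E at -0.58 (0.129) and MT1L at -0.47 (0.158) were no longer called, and MT1A went to -0.06 (0.801). The part of GC in the values of the 5 probes without a sequence was not tested. Gene span also moved with the ratios. The 772 other genes that span up to 2000 bases, as the metallothioneins do, had medians of -0.07 and -0.06 in the G9a siRNA replicates, and 22.3% were called lower. From 2000 to 5000 bases the medians were -0.14 and -0.16 with 34% called lower, from 5000 to 20000 they were -0.10 and -0.11 with 31.6%, and above 20000 they were 0.05 and 0.07 with 17%. The part of gene span in the members' values was not tested.

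**Figure D3:**
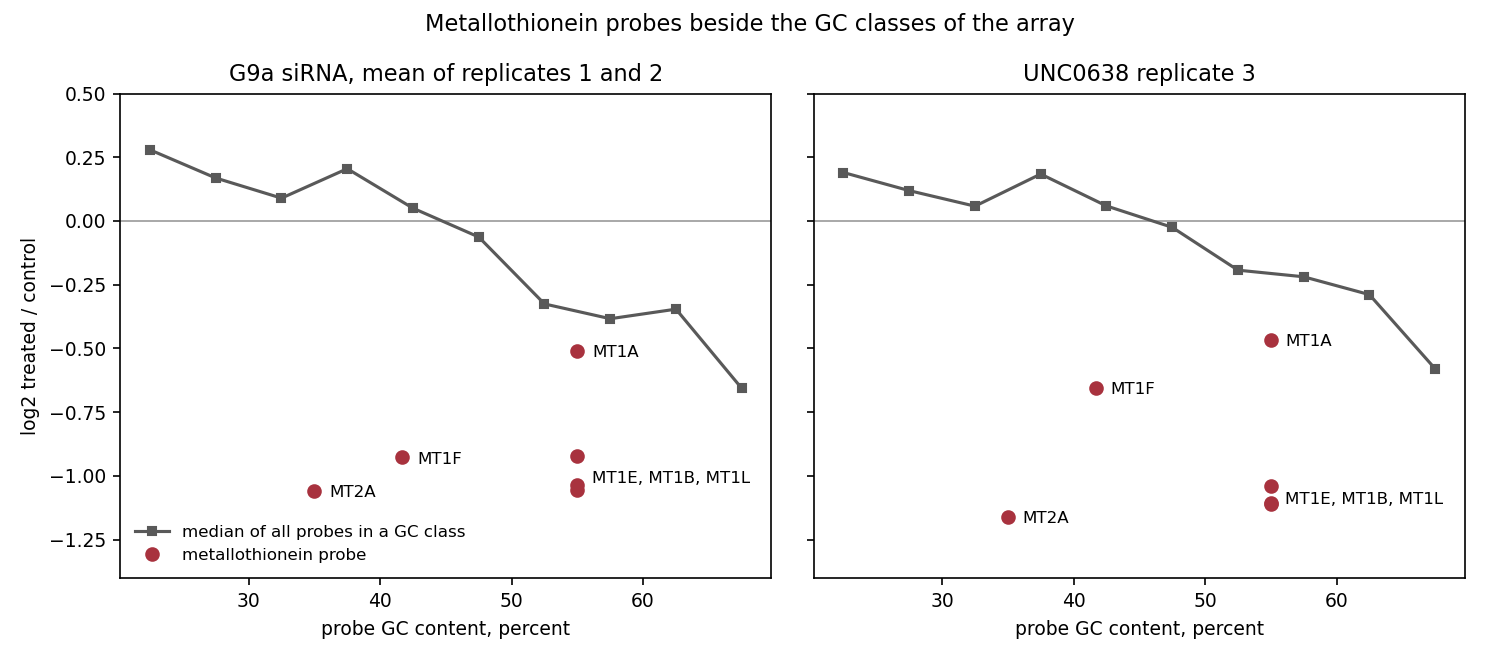
Log2 ratio of treated over control (vertical axis) against probe GC content in percent (horizontal axis), for G9a siRNA and for UNC0638 replicate 3. Squares are medians of all kept probes in 5-point GC classes with at least 50 probes (the mean of both replicates' medians for G9a siRNA), and circles are the 6 kept metallothionein probes with a sequence. The classes mostly decline with GC, and MT1A lies nearest to its class in both panels. MT2A and MT1F lie furthest below their classes for G9a siRNA. In UNC0638 replicate 3 MT2A lies furthest, and MT1B, MT1E and MT1L lie further below their class than MT1F below its own.

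The 2 MT1X probes did not give the same answer. Probe A_33_P3236868 read -0.05 and -0.19 after G9a siRNA, where A_33_P3350056 read -0.83 and -0.94. In UNC0638 replicate 3 they read 0.24 and -0.64, a difference of -0.88, and in replicate 5 they read 0.10 and 0.46. In the WIZ siRNA replicates they differed by -0.005 and -0.06. Both probes were above background on all 13 arrays, with control spots of 511 to 8242 for A_33_P3236868 and 1794 to 28276 for A_33_P3350056 in raw brightness. No sequence was given for either. The files list MT1X alone for A_33_P3236868, and both MT1X and MT1B for the probe that fell, so the MT1X call rests on a probe that is not specific to it.

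**Figure D4:**
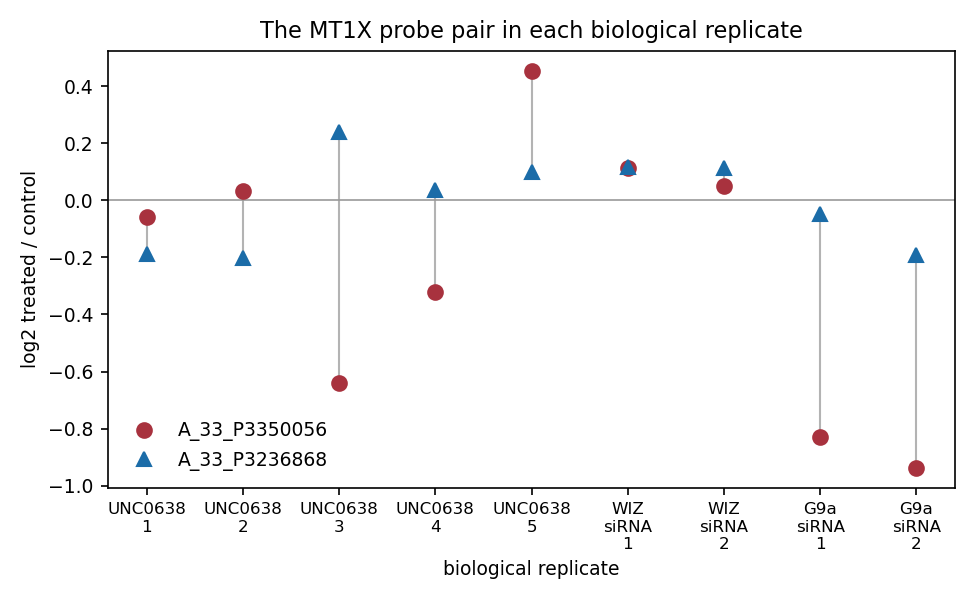
Log2 ratio of treated over control (vertical axis) of both MT1X probes in each of the 9 biological replicates (horizontal axis), with a grey line joining the pair. The probes lie furthest apart in UNC0638 replicate 3 and the G9a siRNA replicates, with differences of -0.745 to -0.879, and nearly coincide under WIZ siRNA.

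UNC0638 did not give a called change in the family. None of the 11 tested probes was called by limma, and none reached an unadjusted p below 0.05, on arrays where 3.24% of all tested probes were called. The median of the family by replicate was -0.09, -0.02, -0.65, -0.32 and 0.46 in replicates 1 to 5. In replicates 1 to 5, 10, 8, 9, 10 and 1 of the 11 probes lay below 0, so replicate 5 stood opposite to the other 4. The medians of replicates 1 and 2 were near 0. Over the 5 replicates the family's median was -0.11. It was 0.004 when replicate 3 was left out and -0.25 when replicate 5 was, and in none of these fits was a member called.

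MT2A read -0.11, 0.04, -1.16, -0.48 and 0.04 in UNC0638 replicates 1 to 5. Its mean of -0.33 (SD 0.511, n = 5) had the smallest adjusted p of the family, 0.265 in limma's test, with a 95% interval of -0.68 to 0.02. MT1E read -0.14, -0.04, -1.11, -0.43 and 0.81. Its SD of 0.694 was the largest of the family, and MT1B and MT1L had the same order of replicates with SDs of 0.646 and 0.616. MT1A had replicates of -0.05, 0.04, -0.47, -0.09 and 0.61 and a mean of 0.01 (SD 0.387, n = 5). MT1X probe A_33_P3236868 had a spread of SD 0.19 and, unlike the others above background, its highest value in replicate 3.

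WIZ siRNA left the family within a narrow band around 0. None of the 11 tested probes was called by limma and none had an unadjusted p below 0.05, on arrays where 0.508% of all tested probes were called. Their means ran from -0.03 to 0.18, with a median of 0.08 beside 0.02 for all tested probes. MT1F had the highest, 0.20 and 0.17 in the 2 replicates (mean 0.18, SE 0.194, limma adjusted p = 1, n = 2), and was called only where the WIZ siRNA replicates were fitted alone (adjusted p = 0.0164), a fit in which 8868 of all 34619 tested probes were called. The 95% interval of MT2A, -0.56 to 0.54, does not exclude changes of the size seen after UNC0638. Single arrays of MT2A depended on the dye: it read -0.28 and -0.27 where Cy3 held the treated RNA, and 0.26 and 0.25 where Cy5 did, which average to -0.01. MT1F also read higher with the treated RNA in Cy5 (0.305 and 0.281) than in Cy3 (0.09 and 0.062). MT1L went the other way, at -0.117 and 0.007 in Cy5 and 0.374 and 0.231 in Cy3. So did MT1A, MT1B, MT1E, MT1H probe A_33_P3315314 and MT1X probe A_33_P3350056. The G9a siRNA arrays have no such swap and hold treated RNA in Cy5. The part of dye in their member values was not tested on arrays of that set.

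Direct comparison of the treatments separated G9a siRNA from WIZ siRNA for 2 members. MT1F was lower after G9a siRNA (difference -1.11, SE 0.274, limma adjusted p = 0.0243), and MT1X probe A_33_P3350056 was too (difference -0.97, SE 0.283, limma adjusted p = 0.0417). In that comparison 20.4% of all tested probes were called and 11.5% were called lower. For MT2A the difference was -1.05, with an adjusted p of 0.0602 and a 95% interval of -1.83 to -0.27. On the Cy5 arrays alone no member was called, and 684 of all tested probes were. Leaving out UNC0638 replicate 1, 2 or 4 gave 1 member call, where 6357, 5837 and 5918 of all tested probes were called. Leaving out UNC0638 replicate 3 or 5 gave 7, where 10211 and 8384 were. Leaving out a WIZ siRNA or G9a siRNA replicate leaves 1 in its group, so no count is given for those fits. WIZ siRNA and G9a siRNA lie in different array sets, so set and treatment cannot be told apart here.

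G9a siRNA and UNC0638 were not separated for any member in limma's test. No member was called, 6 had an unadjusted p below 0.05, and the smallest adjusted p was 0.0525, for MT1F at a difference of -0.79 (SE 0.229). Of all tested probes 12.5% were called in this comparison and 6.66% were called lower. UNC0638 replicate 3 decided this count: without it 8 members were called lower, while calls over all tested probes also rose, from 4332 to 9923. In that fit the difference of MT2A was -0.93 (limma adjusted p = 0.00216) and that of MT1F -0.92 (0.00463). Without replicate 5, 2 members and 4994 of all tested probes were called. Within the array set that holds both treatments, where UNC0638 has replicates 3 to 5, no member was called, but neither was any of the 34619 probes by limma, so this count does not bear on the family. The difference of MT2A there was -0.53 (adjusted p = 0.487). The times also differ, 48 h for UNC0638 and 72 h for the siRNA.

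WIZ siRNA and UNC0638 did not differ for any of the 11 probes by limma's test, nor at an unadjusted p below 0.05, where 0.705% of all tested probes were called. The differences ran from 0.02 to 0.32, and the 95% interval of MT2A was -0.33 to 0.98. Here too 48 h was set against 72 h.

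Among themselves the bright probes followed each other closely from replicate to replicate. Over the 9 replicates, the 28 pairs of the 8 probes above background on every array, MT1X probe A_33_P3236868 left out, correlated at r = 0.86 to 0.997. That probe correlated with the same 8 at -0.06 to 0.23. The points share arrays, dye and GC content, the replicates far from 0 are UNC0638 replicates 3 to 5 and G9a siRNA, and some probes share transcripts or runs of bases, so these are descriptions. Outside the family, the 5 gene symbols of 18938 whose brightest probe best followed the family's median over the 9 replicates were COX6B1 (r = 0.994), a cytochrome c oxidase subunit, RPL36 (0.993), a ribosomal protein, HIST1H2BO (0.993), a histone H2B gene, NFIC (0.992), a transcription factor, and GNG5 (0.99), a G protein subunit. After G9a siRNA their mean ratios were -0.85, -0.81, -0.61, -0.79 and -1.92.

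The genes that handle zinc around the metallothioneins did not move as a block. Of 24 measured genes for MTF1 and the zinc transporters, 6 were called higher and 6 lower after G9a siRNA, 1 higher after UNC0638 and 0 after WIZ siRNA (4 at an unadjusted p below 0.05 in limma's test), beside 33.8%, 3.24% and 0.508% of all tested probes called. MTF1, the metal-sensing factor itself, rose to 0.45 (SE 0.148, limma adjusted p = 0.0424) and is named here after its value was seen. The list's median after G9a siRNA was 0.11, beside -0.01 for all tested probes. This list and those below hold 1 probe per gene, whereas the shares beside them are over all tested probes. A share per gene was not computed.

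The transporters with the largest differences after G9a siRNA went both ways. SLC30A9, which takes part in mitochondrial zinc export, rose to 1.60 (limma adjusted p = 0.00368). The zinc importers SLC39A3 and SLC39A4 fell to -1.18 and -0.89, and SLC39A7, which releases zinc from the endoplasmic reticulum and Golgi, fell to -1.12 (adjusted p-values of 0.00495, 0.00343 and 0.00399). The probe of SLC30A9 is 35% GC and those of SLC39A3 and SLC39A7 are 45% and 51.7%. After UNC0638 the importer SLC39A6 rose to 0.29 (SE 0.0627, limma adjusted p = 0.0413). After WIZ siRNA the largest was SLC39A4 at 0.45, not called (limma adjusted p = 0.312).

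Copper genes showed 1 call upward and 3 downward of 12 after G9a siRNA, and 0 after UNC0638 and 0 after WIZ siRNA (2 and 0 at an unadjusted p below 0.05 in limma's test). After G9a siRNA 33.8% of all tested probes were called in either direction. COX17 and SCO2, which deliver copper to cytochrome c oxidase, fell to -1.09 and -0.95 (limma adjusted p = 0.0135 and 0.00337). CCS, the copper chaperone of superoxide dismutase, fell to -0.70 (0.0159), and SOD1 itself rose to 0.79 (0.00372). The probes of the 3 that fell are 51.7% or 55% GC and that of SOD1 is 45%. The largest uncalled values were SCO2 at -0.23 after UNC0638 and the chaperone ATOX1 at 0.26 after WIZ siRNA.

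Among 18 genes of the oxidative stress response, 2 were higher and 5 lower after G9a siRNA, where 33.8% of all tested probes were called, and 2 were higher after UNC0638, where 3.24% were. SLC7A11, the cystine importer, was called in both: 0.86 after UNC0638 (SE 0.104, limma adjusted p = 0.00255) and 0.64 after G9a siRNA (SE 0.165, limma adjusted p = 0.0159). FTH1, the ferritin heavy chain, rose to 0.32 after UNC0638 (limma adjusted p = 0.0117). FTL, the ferritin light chain, fell to -0.72 after G9a siRNA, and KEAP1, the brake on NRF2, to -0.64. The probe of FTL is 55% GC and that of KEAP1 is 35%. WIZ siRNA had 0 calls (2 at an unadjusted p below 0.05 in limma's test), and its largest value was SLC7A11 at 0.36.

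Of 10 glucocorticoid-responsive genes, 4 were higher and 3 lower after G9a siRNA, beside 33.8% of all tested probes called in either direction, and the list's median was 0.32. The clock gene PER1 fell to -0.91 and the transcription factor ZBTB16 to -0.71, both with probes of 55% GC, while the transcription factor KLF9 rose to 0.88 and NFKBIA, the inhibitor of NF-kappaB, to 0.59, with probes of 45% and 43.3%. Calls after UNC0638 and WIZ siRNA were 0 and 0 (1 and 1 at an unadjusted p below 0.05 in limma's test), with PER1 at -0.40 and SGK1 at 0.37 as the largest.

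Neighbours of the cluster on the long arm of chromosome 16 moved in both directions. Of 21 measured genes, 3 were higher and 4 lower after G9a siRNA, beside 33.8% of all tested probes called in either direction. NUDT21, a cleavage factor subunit, rose to 0.89, GNAO1, a G protein alpha subunit, to 0.84 and ARL2BP to 0.73. The adaptor gene DOK4 fell to -0.84. The probes of the 3 that rose are 35%, 31.7% and 35% GC, and that of DOK4 is 35%. GNAO1 also rose after UNC0638, to 0.79 (SE 0.0776, limma adjusted p = 0.000867), and DOK4 fell to -0.59 (SE 0.132, limma adjusted p = 0.0478). After WIZ siRNA there were 0 calls (4 at an unadjusted p below 0.05 in limma's test), and GNAO1 read -0.49 (adjusted p = 0.175). The median of the list after G9a siRNA was -0.17, beside -0.88 for the metallothionein probes, and the difference was not tested.

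Of the metallothioneins outside the chosen symbols, MT3, the brain isoform, was above background on all 13 arrays. It read -0.17 and -0.27 after G9a siRNA (mean -0.22, SE 0.081, limma adjusted p = 0.0675, n = 2), 0.06 on average after UNC0638 and 0.10 after WIZ siRNA, so it was not called in any treatment. The pseudogene MT1IP, above background on 5 arrays in the treated and 7 in the control RNA, read 0.03 and 0.28 after G9a siRNA, between -0.08 and 0.004 after UNC0638, and 0.10 and -0.13 after WIZ siRNA. MT4 and the pseudogene MT1DP were above background on at most 3 of 13 arrays and were not tested.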

How the data were processed

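Members and gene lists were chosen with earlier results of these data known, and the classes by gene span after values were seen. Spot and background intensities were deposited by the authors as pixel means and medians per channel, uncorrected, per the file headers. A log2 ratio and, in a table for the whole series, log10 ratios deposited by the authors served as alternatives. That table's direction was settled against the array files: control over treated on 8 arrays (r = -0.877 to -0.918), treated over control on 5 (0.925 to 0.971). Its column medians were 0, -0.00301, 0.00794 and 0.00818 (UNC0638 replicates 1 and 2, both orientations), -0.00413, -0.01, 0 and 0.0032 (WIZ siRNA), -0.00359, -0.00609 and -0.00882 (UNC0638 replicates 3 to 5), and 0.00178 and -0.00027 (G9a siRNA), with slopes on log2 of 0.301 to 0.432 in size; its centring is not known. The scanner software was not given in the sources used here.

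Normexp (offset 50) on 62976 spots and loess within arrays (weight 0 for 4259 control spots) were run in R 4.3.3 with limma 3.58.1. No pixels were saturated. Channel 1 of the files was read as Cy3, under which each siRNA's target was lower on every array of its knockdown. Spots of a probe were averaged. A probe counted as above background at 2.6 background SDs over the background median, and was kept where this held on 50% of the arrays of at least 1 of 6 RNA groups. The 9 replicates entered 1 limma fit, a mean per treatment (6 residual and 3.28 prior degrees of freedom), checked on simulated data; siRNA spread is thus largely that of UNC0638. P-values measure the spread between the labelled biological replicates. The number of arrays limits precision. Depending on the array, 47.83% to 92.72% of probes were above background. Every member probe is named, with at most 4 called genes per list and comparison (the largest differences) or, with none called, the largest 1. A listed gene and a marker gene are not reported here. Alternatives covered normalization, background, filter, probe per gene, dye, samples in the fit, GC, array set, replicate block and leaving out replicates.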

Additional observations from a re-analysis of the deposited data

Results flagged for a closer look

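MT1F and MT1X probe A_33_P3350056 differed between the knockdowns by a test of the difference itself. The log2 ratio after G9a siRNA minus that after WIZ siRNA was -1.11 for MT1F and -0.97 for the MT1X probe. Each was lower in both G9a siRNA replicates than in both WIZ siRNA replicates. The share of all tested probes separated in this way was not counted, so this is a description. In that comparison 20.4% of all tested probes were called and 11.5% were called lower, and array set and treatment cannot be told apart. The UNC0638 values of the 12 probes were searched for single samples far from the other 4 (Dixon's critical value 0.71 for 5 samples), and none was found.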

How the results depend on the processing

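Under the alternatives no member ratio that was called changed sign. Calls over all probes are given in brackets beside member calls. Member calls after G9a siRNA, 7 (11702), were 3 (5283) with a dye term. They were 4 to 8 (10833 to 13522) when 1 UNC0638 replicate was left out. The family's median (-0.88) was -0.997 from the authors' log10 table and -0.76 with a dye term. WIZ siRNA replicates fitted alone gave 1 member call (8868) in place of 0 (176), and their Cy5 arrays a median of 0.005. For G9a siRNA minus UNC0638, with 0 member calls (4332), no background correction gave 1 (4612) and a dye term 2 (3162). UNC0638 replicates 1 and 2 alone gave 8 (13100). Leaving out UNC0638 replicates 3 and 5 (chosen after seeing the data) gave 8 (11881), and leaving out 1 UNC0638 replicate 0 to 8 (713 to 9923). Array set, an alternative also chosen after seeing the data, gave 0 (288) as a block and 0 (0) within the shared set. For G9a siRNA minus WIZ siRNA, with 2 member calls (7052), the log10 table gave 1 (4443), Cy5 arrays alone 0 (684) and own replicates alone 8 (13429). Leaving out UNC0638 replicates 3 and 5 gave 8 (12440), and leaving out 1 UNC0638 replicate gave 1 to 7 (5837 to 10211). The replicate number as a replicate block gave 8 member calls (13197) for G9a siRNA minus UNC0638 and 8 (14145) for G9a siRNA minus WIZ siRNA. Same-numbered samples did not deviate together (r from -0.277 to 0.365), so the numbers were not taken to pair samples. Calls over all probes also moved over the alternatives that kept at least 2 replicates in every group of the fit. For UNC0638 they went from 1122 to between 425 and 2907, and for WIZ siRNA from 176 to between 29 and 8868. G9a siRNA went from 11702 to between 5283 and 15489, and WIZ siRNA minus UNC0638 from 244 to between 70 and 1467. G9a siRNA minus UNC0638 went from 4332 to between 0 and 13197, and G9a siRNA minus WIZ siRNA from 7052 to between 684 and 14145. Where no setting's construction shows why, the cause was not tested. The GC correction was not run for family counts and medians, since 7 of 12 probes have a sequence, and no slide or scan is named in the files. Dim spots limit MT1G, MT1M and MT1H probe A_33_P3368313.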
